A study of Mus musculus with 14 samples.

Results

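Motor and sensory neurons are told apart by families of homeodomain transcription factors, and 6 such genes are described here, namely Phox2a, Mnx1, Onecut1, Onecut2, Pou4f1 and Pou4f2. They were chosen by name, as listed genes of the Phox2, Mnx, Onecut and Pou4f families, and were found through Entrez identifiers paired with mouse symbols. Of 16060 genes with a row on either day, 4 of the 6 had a row at D5 (Phox2a, Onecut1, Onecut2 and Pou4f1) and 5 had one at D10 (the same 4 and Pou4f2). Mnx1 had no row on either day in the data used here, and Pou4f2 had none at D5, so no value is given for them there.

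Poly(A) RNA had been sequenced from mouse embryonic stem cells of the GLI1-FTA line, in the A2Lox.cre background, that were differentiating along a neural path. Induced cultures received 500 ng/ml doxycycline for 48 h, between days 3 and 5, to switch on GLI1, the transcriptional activator at the end of the Hedgehog pathway, and were then washed. There were 4 induced and 4 untreated samples at D5, labelled neural progenitor cells, and 3 induced and 3 untreated samples at D10, labelled immature neurons, 5 days after the washout. All groups came from 1 transgenic line, and the untreated cells had no doxycycline, so GLI1 and the drug cannot be told apart. The labels do not say whether replicates were separate cultures, so p-values measure only the spread between these samples.

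The values used are the authors' comparisons of induced with untreated samples. No value of a single library was used, so neither a spread between replicates nor the depth per sample is known here. In what follows, a log2 fold change is induced over control, positive where induced samples were higher, and a gene is called changed at an adjusted p under 0.05 over all genes of that day. The standard error (SE) is implied, computed here from the fold change and its p-value. An implied CPM (read count scaled to library size) for each group was also computed here, from the average log2 CPM and the fold change. It is an approximate group mean without a replicate error. As a check of the labels, Gli1 had a log2 fold change of 4.79 at D5 (adjusted p = 1.12e-81) and 0.57 at D10 (adjusted p = 0.780) in the authors' deposited table.

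In the developing hindbrain and spinal cord, Hedgehog signal from the floor plate sets ventral fates, among them motor neurons, while sensory and many dorsal relay neurons form away from it. Phox2a is needed in noradrenergic and cranial visceral motor neurons, Mnx1 in somatic motor neurons, and the Onecut factors in motor neurons, several interneurons and the retina, as well as in liver and pancreas. Pou4f1 (Brn3a) serves peripheral sensory neurons and some dorsal neurons of the neural tube, and Pou4f2 (Brn3b) is best known from retinal ganglion cells.

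At D5, while GLI1 was induced, Pou4f1 and Onecut2 were lower in induced cultures, and Phox2a and Onecut1 were not called. The 2 genes called lower, of 4 with a row, compare with 2.10% of all 15108 genes called lower and 2.34% called higher in the authors' deposited table. Without values per library, it cannot be said which samples carried these changes.

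Pou4f1 (Entrez 18996) stood at an implied 11.2 CPM in induced cultures and 21.4 CPM in control cultures at D5. It was 1.91-fold lower with induction in the authors' deposited table, a log2 fold change of -0.93 (implied SE 0.18, 95% interval -1.28 to -0.59, adjusted p = 1.06e-05). Only 0.814% of all genes had a lower log2 fold change that day. Onecut2 (Entrez 225631) stood at an implied 85.9 CPM in induced cultures and 121 CPM in control cultures. Its fall was smaller, 1.41-fold, with a log2 fold change of -0.50 in the authors' deposited table (implied SE 0.12, 95% interval -0.74 to -0.25, adjusted p = 0.00265). With Holm's adjustment Pou4f1 still passed (0.00194) and Onecut2 did not (0.892), and neither reached a 2-fold change.

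The liver, pancreas and motor neuron factor Onecut1 (Entrez 15379) was at an implied 4.81 CPM in induced and 5.29 CPM in control cultures at D5. Its log2 fold change was -0.14 in the authors' deposited table (adjusted p = 1), and its 95% interval of -0.61 to 0.34 contains the value of Onecut2. Phox2a (Entrez 11859) was scarce at this stage, at an implied 0.447 CPM in induced and 0.644 CPM in control cultures. Its log2 fold change of -0.53 in the authors' deposited table had a wide interval, -1.48 to 0.42 (adjusted p = 1.00), so a change of the size seen for Pou4f1 lies within it.

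Of the paralogues outside the list, Onecut3 (Entrez 246086) was at an implied 7.12 CPM in induced and 14.6 CPM in control cultures at D5, with a log2 fold change of -1.04 in the authors' deposited table (implied SE 0.21, adjusted p = 9.45e-05). Pou4f3 has no value here.

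**Figure D1:**
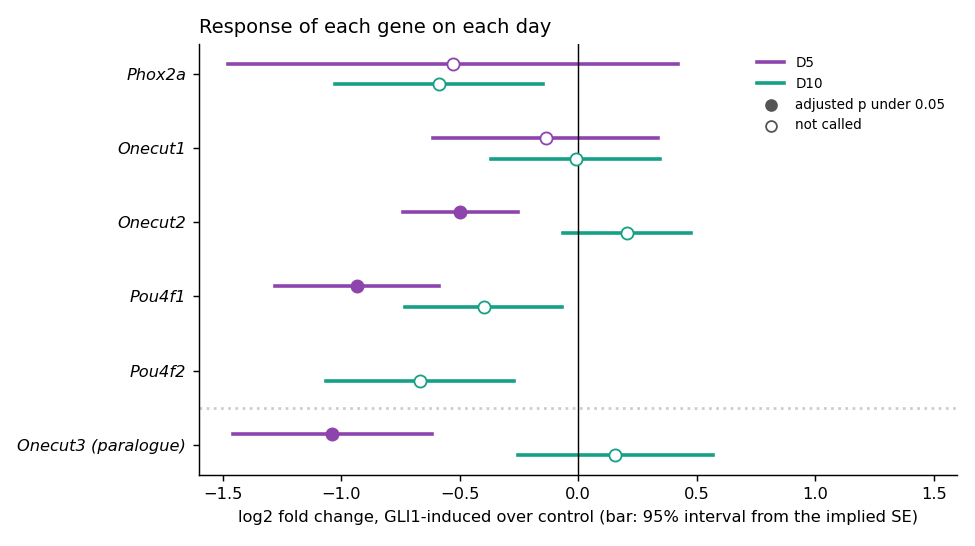
Log2 fold change of GLI1-induced over control cultures (horizontal axis) for each gene at D5 (purple, 4 samples per group) and D10 (green, 3 per group), with bars for the 95% interval from the implied SE and filled points for an adjusted p under 0.05. The filled points are Onecut2, Pou4f1 and the paralogue Onecut3, all at D5 and all left of 0, while the D10 values of the Onecut genes lie at or right of -0.01.

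At D10, 5 days after the washout, no member passed: 0 of 5 were called in either direction, against 0.0826% of all 15744 genes, all of them higher, in the authors' deposited table. At an unadjusted p under 0.05, 3 of the 5 (Pou4f2, Phox2a and Pou4f1) were on the lower side in the authors' deposited table, against 0.648% of all genes. These 3 do not pass the adjustment over all genes. The Onecut genes were not among them.

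Pou4f2 (Entrez 18997) stood at an implied 6.73 CPM in induced-and-washed cultures and 10.7 CPM in control cultures at D10. Its log2 fold change was -0.67 in the authors' deposited table (implied SE 0.20, 95% interval -1.07 to -0.27, p = 0.000954, adjusted p = 0.601), which put it 25th of all genes by p. Phox2a was at 2.59 CPM in the washed cultures and 3.90 CPM in controls, with a log2 fold change of -0.59 in the authors' deposited table (implied SE 0.22, p = 0.00864, adjusted p = 1). For Pou4f1 the levels were 8.70 CPM in washed cultures and 11.5 CPM in controls, and the log2 fold change was -0.40 in the authors' deposited table (implied SE 0.17, p = 0.0184, adjusted p = 1). The p-values of that day leaned high, with a median of 0.684 over all genes. After a rescaling of the authors' p-values within expression bins, 2 of the 5 members passed on the lower side, Pou4f2 (adjusted p = 0.000489) and Phox2a (0.0455), against 0.260% of all genes, and Pou4f1 came to 0.0611. Onecut2, on the higher side, came to 0.0675.

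Onecut1 had close implied levels in both D10 groups, 13.5 CPM in washed cultures and 13.6 CPM in controls. Its log2 fold change of -0.01 in the authors' deposited table had a 95% interval of -0.37 to 0.35. Onecut2, lower at D5, stood at 87.7 CPM in washed cultures and 76.0 CPM in controls at D10, a log2 fold change of 0.21 in the authors' deposited table (95% interval -0.07 to 0.48, adjusted p = 1). The paralogue Onecut3 had 17.5 CPM in washed cultures and 15.7 CPM in controls, with 0.16 in the authors' deposited table (adjusted p = 1).

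The start regions of the 3 members on the lower side at D10 are shown because these genes leaned the same way there. They are the 250 bases before the RefSeq start (assembly GRCm38.p6), 5′ to 3′ on the strand of the gene, with matches to CANNTG (the E-box of proneural factors) in capitals. The windows are chr14:104468000-104468249 on the minus strand for Pou4f1, chr8:78436648-78436897 on the minus strand for Pou4f2 and chr7:101818063-101818312 on the plus strand for Phox2a.
Pou4f1: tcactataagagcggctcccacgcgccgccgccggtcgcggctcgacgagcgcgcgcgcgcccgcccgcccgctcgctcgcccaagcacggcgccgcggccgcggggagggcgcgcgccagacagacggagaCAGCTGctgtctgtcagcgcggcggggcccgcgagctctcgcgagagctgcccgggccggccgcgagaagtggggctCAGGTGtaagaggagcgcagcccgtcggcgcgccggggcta
Pou4f2: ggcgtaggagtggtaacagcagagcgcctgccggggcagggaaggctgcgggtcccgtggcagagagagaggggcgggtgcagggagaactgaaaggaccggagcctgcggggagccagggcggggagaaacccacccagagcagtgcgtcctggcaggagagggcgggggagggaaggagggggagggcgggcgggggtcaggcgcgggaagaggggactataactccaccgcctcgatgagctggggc
Phox2a: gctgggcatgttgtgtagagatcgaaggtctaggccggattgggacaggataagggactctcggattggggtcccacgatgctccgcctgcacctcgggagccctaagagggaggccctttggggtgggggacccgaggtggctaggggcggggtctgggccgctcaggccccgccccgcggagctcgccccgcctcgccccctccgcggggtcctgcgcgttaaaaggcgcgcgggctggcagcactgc

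None of these windows overlaps an exon that GENCODE M21 annotates for its gene. The first 30 bases after the RefSeq start were found in a GENCODE transcript for Pou4f1 and Phox2a but not for Pou4f2, so the place of its window is less certain. The window of Pou4f1 held 2 E-boxes, 118 and 41 bases before the start, and those of Pou4f2 and Phox2a held 0, whereas 66.2% of 32851 promoter windows of this length held at least 1. The GLI site GACCACCCA was looked for on both strands and was in none of the 3, nor in the windows of Mnx1 and Onecut1. It was in 0.225% of all windows. The homeodomain site TAATTA was also in none of these 5 windows, against 4.84% of all. No window was used for Onecut2, so it was not searched for any of these sites. The E-box of Pou4f1 nearest to the start was CAGGTG in the printed strand. The windows were rich in G and C, at 78% for Pou4f1, 70.8% for Pou4f2 and 70.4% for Phox2a. A missing match says only that these letters are not in these bases.

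The response to induction was then compared between the days, with a test computed from the fold changes and p-values of the authors. No exact test was possible without values per library, and the test is approximate. Of the 4 members with a row on both days, 1 differed, Onecut2, against 1.24% of the 14792 shared genes. Its log2 fold change moved by 0.70 between the days (D10 minus D5, SE 0.19, 95% interval 0.34 to 1.07), with an adjusted p = 0.0162 derived from the authors' p-values. It did not pass at a threshold of 0.01 or with Holm's adjustment. The paralogue Onecut3 differed in the same direction, by 1.19 (SE 0.30), with an adjusted p = 0.00828 derived from those of the authors. Pou4f1 moved by 0.54 (SE 0.24, adjusted p of 0.742), Onecut1 by 0.13 (95% interval -0.47 to 0.72) and Phox2a by -0.06 (95% interval -1.10 to 0.99), and none of these 3 passed.

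The days also differed in the level of the genes themselves, which is described without a test, since no library values join them. Phox2a had an implied level 5.80-fold higher at D10 than at D5 in induced cultures and 6.05-fold higher in control cultures. Onecut1 was 2.81-fold higher in induced and 2.57-fold higher in control cultures. Pou4f1 went the other way, with D10 at 0.776 of the D5 level in induced cultures and 0.536 in controls. Onecut2 was level in induced cultures, at 1.02-fold, while D10 controls stood at 0.627 of D5 controls. Onecut3 had 2.46-fold in induced cultures and 1.08-fold in controls. In these implied levels, which carry no error, the induced level of Onecut2 was alike on both days while its control level was lower at D10. For Onecut3 the control level was alike and the induced level higher. Whether the difference between days in the fold change is made up differently for Onecut2 and Onecut3 was not tested.

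**Figure D2:**
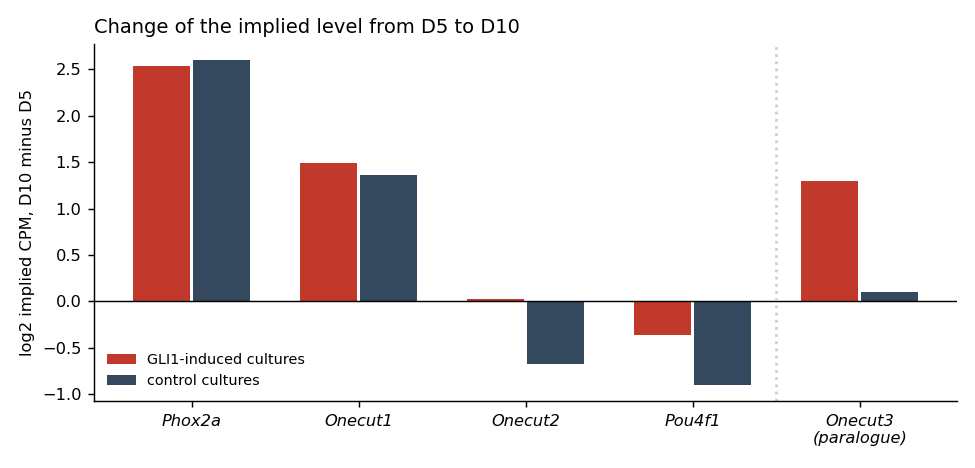
Change of the implied level between the days (vertical axis, log2 CPM at D10 minus D5) for the genes with a row on both days, in GLI1-induced cultures (red) and control cultures (dark). Phox2a and Onecut1 are well above 0 in both, Pou4f1 is below 0 in both, and Onecut2 and Onecut3 differ between the cultures.

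Pou4f2, with a row at D10 only, ranked 30th by average log2 CPM among 952 genes of that kind, at 3.12 in the authors' deposited table. The median of those genes was 0.24 and their 90th percentile 2.11, so Pou4f2 was high among them. The sources used here do not give how genes were chosen for the table of either day.

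Levels can be set against each other between genes once divided by exon length (kilobases of the union of GENCODE M21 exons). On this scale of implied CPM per kilobase, the D5 order was Onecut2 (5.29 in induced, 7.47 in control cultures), Pou4f1 (2.40 in induced, 4.58 in control cultures), Onecut1 (1.17 in induced, 1.29 in control cultures) and Phox2a (0.219 in induced, 0.316 in control cultures). At D10 Onecut2 was again highest, at 5.40 in washed and 4.68 in control cultures. Pou4f2 had 2.10 CPM per kilobase in washed and 3.34 in control cultures, beside Onecut1 with 3.28 in washed and 3.31 in control cultures. Pou4f1 followed at 1.86 in washed and 2.45 in control cultures, then Phox2a at 1.27 in washed and 1.91 in control cultures. Without a spread over samples it cannot be said which neighbours in these orders differ. The exon union of Onecut2 is long, 16.2 kilobases, which lowers its value on this scale if the cells use a shorter transcript.

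**Figure D3:**
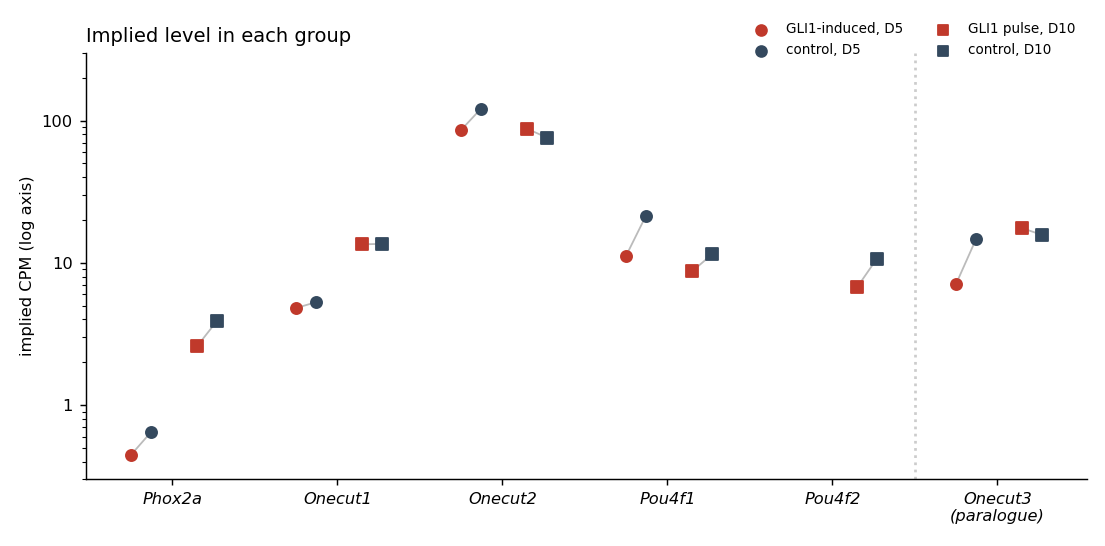
Implied CPM (vertical log axis) of each gene in GLI1-induced (red) and control (dark) cultures at D5 (circles) and D10 (squares), each point an approximate group mean of 4 or 3 samples with no error. Onecut2 is near 100 CPM throughout, Phox2a is above 1 CPM in both cultures at D10 only, and red lies below dark for Pou4f1 on both days.

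Phox2a overlaps Inppl1, an inositol phosphatase gene on the opposite strand, and Inppl1 was much more abundant, with an average log2 CPM of 6.95 at D5 and 7.26 at D10 in the authors' deposited table. The sources used here do not give whether counting used the strand, and some Phox2a reads may belong to Inppl1. In the authors' deposited table Inppl1 had a log2 fold change of 0.08 at D5 and -0.01 at D10, called on neither day. Onecut1 overlaps the lincRNA Gm20649 on the same strand, which has no row here, and no overlap was annotated for Mnx1, Onecut2, Pou4f1 and Pou4f2.

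Genes with the pattern most like each member were sought over 3 values, the log2 fold changes of both days and the change of the average log2 CPM between days, among the 14011 genes whose average log2 CPM was 0 or more on both days. For Onecut1 these were Rusc1, Itpripl2 and Anxa6, within a distance of 0.0506. For Onecut2 they were Gm2075, Dusp4 and 9930014A18Rik (up to 0.170), and for Pou4f1 the 3 nearest, up to 0.366, included Gm45351 and Slitrk4. Phox2a had Ugt2b34, P4ha2 and Tnc nearest (up to 0.421). These distances rest on 4 group means and carry no error.

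Genes of related neuron classes were read from 9 lists, to be set against the 2.34% of all genes called higher and 2.10% called lower at D5. Somatic motor neuron genes leaned upward at D5: of 12 in the authors' deposited table, 4 passed as higher and 0 as lower, and the median log2 fold change was 0.52, against 0.0015 for all genes. The other 8 were not called, and 4 of the 12 lay below 0. The called ones in the authors' deposited table were the ventral progenitor factor Nkx6-1 at 2.28, the receptor gene Ret at 1.43, the POU factor gene Pou3f1 at 0.77 and the proneural gene Neurog2 at 0.68. The authors' deposited table held 11 visceral motor and noradrenergic genes, of which 3 passed as higher and 1 as lower, namely Nkx2-9 at 5.72, Nkx2-2 at 5.38, the vesicular amine transporter gene Slc18a2 at 1.77 and Rgs4 at -1.45. Phox2a, a factor of these same neurons, was not called that day.

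In lists of sensory, retinal ganglion and dorsal neurons, the genes called at D5 were all lower. In that order, 5 of 15, 1 of 6 and 3 of 9 genes had a log2 fold change above 0 without being called. The Pou4f genes act in only some of these neurons, and which listed genes share cells with them is not known here. Of 15 sensory neuron genes with a row, 2 were lower in the authors' deposited table, the neurotrophin receptor gene Ntrk2 at -1.23 and Prdm12 at -1.56, a regulator of pain-sensing neurons (median of the list -0.31). Of 6 retinal ganglion cell genes, 2 were lower in the authors' deposited table, Ebf3 at -0.57 and Sncg at -0.86 (median -0.47). Of 9 dorsal interneuron genes, 5 were lower in the authors' deposited table (median -0.93), led by Prdm13 at -1.47, Tfap2b at -1.49, Lhx1 at -1.50 and Lhx5 at -1.13. Lmx1b, at 1.02 in the authors' deposited table (adjusted p = 0.0583), was among the 3 dorsal genes above 0. In ventral interneuron and Renshaw cell genes 0 of 6 were called in the authors' deposited table (median 0.00060).

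Lists of general neuron genes and of other cell types were read in the same way. In the authors' deposited table for D5, 8 of 19 general neuron genes passed as lower and 0 as higher, among them the neurofilament genes Nefm at -1.61 and Nefl at -1.11, Gap43 at -0.70 and Stmn2 at -0.39. Other genes of this list did not pass in the authors' deposited table. Among them were Syt1 at -0.46, Map2 at -0.28, Stmn3 at -0.15 and Dcx at -0.0026. On the higher side were Elavl2 at 0.05, Elavl3 at 0.05, Elavl4 at 0.11, Ncam1 at 0.28 and Rbfox3 at 0.53. Of all 19 genes, 14 lay below 0 and 5 above, with a median of -0.28. The summed implied level of all 19 was 1090 CPM in induced and 1409 CPM in control cultures. In bulk RNA, fewer cells of a type and less RNA per cell cannot be told apart, and 11 of these 19 genes did not pass. Endoderm, liver and pancreas also use Onecut1, and of 14 such genes in the authors' deposited table, those that passed were 2 higher and 5 lower, with Foxa2 at 1.37 and Foxa1 at 1.41 on the higher side and Gata4 at -0.78 and Gata6 at -0.67 on the lower. Of these 14 genes, 9 lay below 0 and 5 above, with a median of -0.50. Their summed implied level was 258 CPM in induced and 307 CPM in control cultures. Foxa1 and Foxa2 were the only genes of this list called higher, and the cells that held their RNA are not known. In neural crest and glia genes 0 of 7 were called in the authors' deposited table. The part of any of these in the values of Pou4f1 and Onecut2 was not tested.

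**Figure D4:**
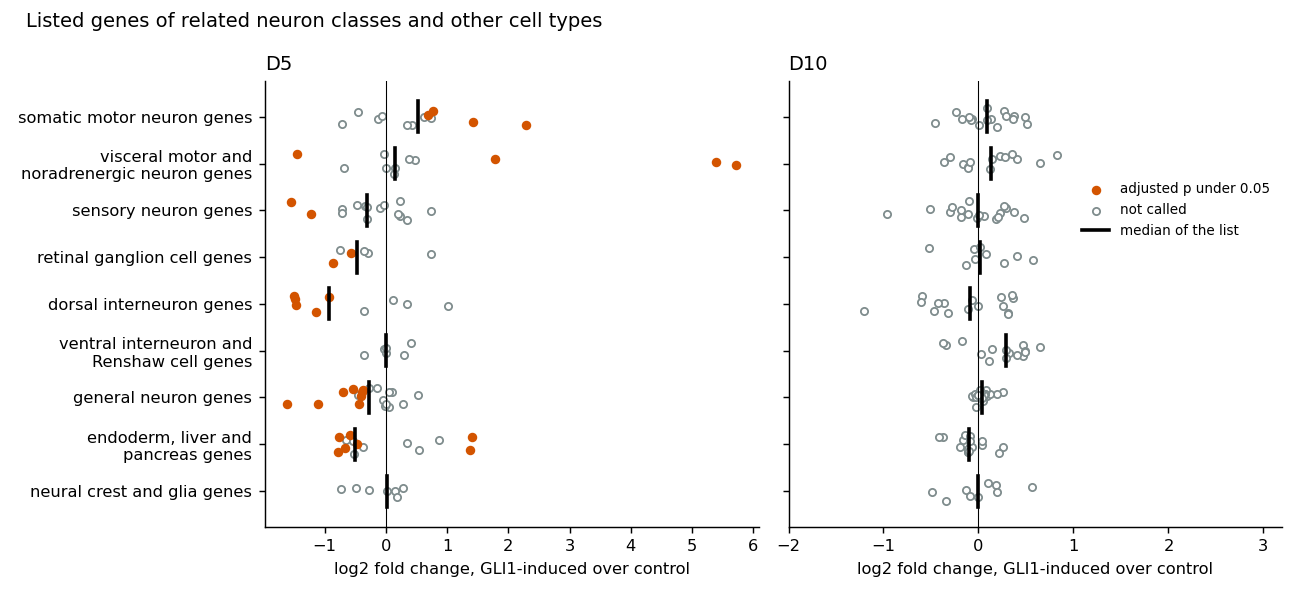
Log2 fold change of GLI1-induced over control cultures (horizontal axis) for the listed genes with a row at D5 (left) and D10 (right), each point a gene, filled where the adjusted p is under 0.05, with a black bar for the median of the list. At D5 the medians run between -0.93 for dorsal interneuron genes and 0.52 for somatic motor neuron genes, and at D10 no point is filled.

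At D10 none of these lists held a call in the authors' deposited table: 0 of 17 somatic motor, 0 of 14 visceral motor, 0 of 18 sensory, 0 of 9 retinal ganglion and 0 of 16 dorsal interneuron genes passed. The medians at D10 were 0.09, 0.13, -0.0091, 0.018 and -0.086 in that order, against 0.0027 for all genes. General neuron genes had a median of 0.04, with a summed implied level of 3213 CPM in washed and 3146 CPM in control cultures, and 0 of 19 were called. Pou4f2, Phox2a and Pou4f1 were lower but not called at D10, and the part of neuron content in their values was not tested.

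The cultures, labelled neural progenitor cells and immature neurons, were checked against defining markers. All 5 general neuron markers had a row on both days, with a summed implied level of 599 CPM in induced and 703 CPM in control cultures at D5, and 1613 CPM in washed and 1584 CPM in control cultures at D10. All 8 endoderm markers also had one, at 176 CPM in induced and 211 CPM in control cultures at D5, and 467 CPM in washed and 502 CPM in control cultures at D10. At D5, Foxa2 gave 37.8 CPM of that sum in induced and 14.6 CPM in control cultures. It was the 1 endoderm marker called higher that day, and 3 were called lower. Of 5 somatic motor neuron markers, 2 had a row at D5, and 0 were called. Their summed implied level was 9.28 CPM in induced and 5.76 CPM in control cultures. All 5 had a row at D10, at 13.0 CPM in washed and 11.7 CPM in control cultures. Of 5 sensory neuron markers, 2 had a row at D5, with 15.6 CPM in induced and 18.3 CPM in control cultures, and 4 at D10, with 21.9 CPM in washed and 21.0 CPM in control cultures. Of 3 retinal ganglion markers, all but the factor gene Atoh7 had a row on both days, with 31.0 CPM in induced and 39.5 CPM in control cultures at D5, and 109 CPM in washed and 110 CPM in control cultures at D10. The 4 neural crest markers summed to 1.96 CPM in induced and 2.94 CPM in control cultures at D5, where Sox10 and Foxd3 had no row, and to 22.1 CPM in washed and 23.9 CPM in control cultures at D10. The levels given here for the members are thus levels in mixed cultures, and the cells that hold the RNA are not known.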

How the data were processed

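RNA of 14 libraries in 4 groups, taken from the labels, was compared within each day. Per the labels' protocols, libraries came from a TruSeq kit and gave single-end reads of 50 bases. The sources used here do not give the aligner, the counting, the test or the build. The values are the authors' own: per the file headers, a log fold change (taken as log2), an average log2 CPM, a p-value and an FDR per Entrez gene. Symbols were matched for 94.6% of identifiers at either day with an NCBI RefSeq table of assembly GRCm38.p6. The FDR was checked as a Benjamini-Hochberg adjustment of the deposited p-values.

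The implied SE was the size of the log2 fold change over that of z from the two-sided p. It is no replicate SD. Implied CPM took the groups as equal in size and the average as the log2 of the mean, so it is approximate for low genes. The difference between days was taken over the root of the summed squared SEs, against a normal reference, with Benjamini-Hochberg adjustment over 14792 genes. Genes without a finite SE on either day, 434, counted as no difference. Rescaling divided z, in bins of about 500 genes by average log2 CPM, to give it the median size of a standard normal, which takes most genes as unchanged.

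The members and lists were chosen with earlier results of these data known. Named are Gli1, the members, their paralogues, up to 4 called genes per list with the smallest p, and the 3 nearest genes to each member. Some genes that this rule takes are left out here. Inppl1 was named after its values were seen, as were Tal1, Gata2, Lmx1b and the neuron genes given as not called. Python 3.11.15, pandas 2.3.3 and scipy 1.17.1 were used, and the difference test was tested on simulated data.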

Additional observations from a re-analysis of the deposited data

Results flagged for a closer look

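The response of Onecut2 to induction differed between the days, by 0.70 on the log2 scale (D10 minus D5) by the approximate test on implied SEs. Of the 4 members with values on both days it was the one that passed. The cause was not tested.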

How the results depend on the processing

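No paired analysis was possible because no values per library were used, and leaving out each replicate in turn could not be run for the same reason. Of the 2 members called at D5, 1 passed with Holm's adjustment and 0 with a 2-fold minimum. The counts for all genes at D5 were 433 at an adjusted p under 0.01, 242 with Holm's adjustment and 250 with a 2-fold minimum, in place of 671. At D10, rescaling gave 2 members in place of 0 and 119 genes in place of 13, and a 2-fold minimum left 6 genes. Between the days, 0 members passed at 0.01 or with Holm's adjustment, in place of 1. Over all genes 89 passed with Holm's adjustment and 361 after rescaling, in place of 183. Centring on the median of all genes turned no member's direction. Causes were not tested. The depth per sample is unknown, so how far low counts limit Phox2a at D5 cannot be given.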

Other observations

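Ventral interneuron and Renshaw cell genes lay above 0 at D10 in 12 of 15 cases, with a median log2 fold change of 0.29 in the authors' deposited table and 0 called. Tal1 at 0.47 and Gata2 at 0.65, factors of V2b interneurons, passed after rescaling of the authors' p-values (adjusted p of 0.0010 and 0.0032).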
